A study of Mus musculus with 16 samples.

Results

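The fibroblast and pericyte scar genes described here are Cd248, Pdgfrb, Serpinh1, Fn1, Postn, Dcn, Lum, Pdgfb, Rgs5 and Sparc, 10 of the 24411 gene symbols measured. They were chosen by symbol, with earlier results of these data known. All 10 were among the 16091 genes that passed the filter on low values, a mean TPM (a level scaled to gene length and library depth) above 1 in 1 condition or more. Spinal cord RNA of 16 female C57BL/6J mice was sequenced to profile the chronically injured cord and the effect of delayed atorvastatin, a statin. The SCI + Atorvastatin group (n = 7) and the SCI + Vehicle group (n = 7) were anesthetized with xylazine and ketamine at an age of 12 wk and received a lateral compression of the cord to 0.25 mm at vertebral level T8-9. From 2 wk after injury, and daily for 4 wk, the former received atorvastatin (10 mg/kg) in a vehicle of dimethyl sulfoxide, polyethylene glycol, Tween and saline, and the latter received the vehicle. The Uninjured Control group (n = 2) had neither injury nor injection and is labelled as 12 wk old, the age of the other mice at injury (the study's methods give the controls another age and the harvest another day than the labels), so age, injection and injury cannot be told apart in comparisons with it. A segment of 5 mm around the lesion, or the matching segment, was taken from each mouse at 6 wk after injury.

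After spinal cord injury, the core of the lesion fills with a fibrotic scar made by cells of the vessel wall and the meninges, perivascular fibroblasts and pericytes among them. Endothelial cells secrete PDGF-BB, the product of Pdgfb, which holds pericytes on the vessel through its receptor PDGFRβ, the product of Pdgfrb, and PDGFRβ also marks the fibroblasts of the scar. Such cells secrete fibrillar collagen together with fibronectin, periostin and small leucine-rich proteoglycans, and these components build a matrix through which axons grow poorly. In bulk tissue, fewer cells of a type and less RNA per cell cannot be told apart.

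Libraries held 14823292 to 25579826 counts on genes, with the lowest total in SCI + Vehicle mouse 4. Both Uninjured Control libraries stood apart: 13.9% and 17.6% of 3239 genes of moderate level (200 to 500 counts on average after SCI) had no count in control mice 1 and 2, against at most 0.247% in any SCI mouse. The summed TPM of 10 liver markers was 8202.0 and 2461.2 in the controls and 1044.1 to 1367.1 in the SCI mice, and all 10 had counts in the controls. In each SCI mouse 2 to 7 of these markers were at 0 TPM, so its sum came from only some of them. Alb, for example, was 3268.8 and 548.5 TPM in the controls and 0 to 4.83 TPM in the SCI mice. Hox RNA of the cord was present in every mouse, since 14 Hox genes of the cord summed to 521.8 to 782.4 TPM over the 16 mice and none was at 0 in every mouse of a group. Such a sum cannot show that no other tissue was in the sample. SCI + Atorvastatin mouse 2 carried 4354.8 TPM of 10 skeletal muscle markers, and SCI + Vehicle mouse 3 carried 1163.9, against 100.7 to 339.6 in the other SCI mice. SCI + Vehicle mice 4 and 7 had the lowest sums of 28 fibroblast and meningeal markers in their group (2689.1 and 2355.0 TPM, against 4856.6 to 6627.5), and also of 10 Schwann cell markers (76.5 and 59.2 TPM, against 177.9 to 260.2). Results that rest on 1 of these mice are given with and without it below, and the part of muscle, liver or nerve root RNA in them was not tested.

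Promoter windows of RefSeq (assembly GRCm38.p6) were available for 4 of the 10 genes. Shown are the 250 bases before an annotated start of Serpinh1 and Postn, whose levels correlated across the SCI + Vehicle mice (r = 0.927), and of Rgs5, whose r with each was 0.174 and -0.052 there. Capitals mark matches to the letters searched on both strands, namely GGGCGG (the GC box bound by SP factors), TATAAA (the TATA box), GGAATG (the core of TEAD sites), CAGACA (the core of SMAD sites) and CACGTG (an E-box). The windows are chr7:99353240-99353489 on the minus strand for Serpinh1, chr3:54360857-54361106 on the plus strand for Postn and chr1:169655251-169655500 on the plus strand for Rgs5.
Serpinh1: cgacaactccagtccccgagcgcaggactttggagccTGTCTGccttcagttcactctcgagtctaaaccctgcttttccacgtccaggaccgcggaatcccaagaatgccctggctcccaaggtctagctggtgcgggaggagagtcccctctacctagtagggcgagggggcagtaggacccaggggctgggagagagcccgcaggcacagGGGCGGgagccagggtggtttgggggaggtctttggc
Postn: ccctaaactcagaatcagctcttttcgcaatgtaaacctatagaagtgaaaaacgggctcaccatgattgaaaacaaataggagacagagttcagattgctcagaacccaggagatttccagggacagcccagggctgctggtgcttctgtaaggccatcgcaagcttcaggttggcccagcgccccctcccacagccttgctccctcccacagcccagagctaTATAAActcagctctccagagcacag
Rgs5: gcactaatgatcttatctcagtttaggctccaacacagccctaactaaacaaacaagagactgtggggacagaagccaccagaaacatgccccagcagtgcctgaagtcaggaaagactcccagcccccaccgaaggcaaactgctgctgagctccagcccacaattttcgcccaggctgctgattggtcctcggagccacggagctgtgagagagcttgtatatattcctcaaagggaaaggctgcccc
The Serpinh1 window held GGGCGG, found in 32.7% of all 32851 windows of this length, and CAGACA on the opposite strand, read as TGTCTG in the line above and found in 17.1%. The Postn window held TATAAA, found in 12.4% of windows, while a second RefSeq window of Postn at chr3:54359017-54359266 held none of the 5, and the Rgs5 window held none of the 5. The Sparc window at chr11:55420081-55420330, which is not printed, held CAGACA on the opposite strand. Sparc had r = 0.937 with Rgs5 in SCI + Vehicle. No 2 matches overlapped. A match in letters is a description of the sequence and not a binding site.

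The 10 genes covered a wide range of levels. On the TPM scale, which accounts for gene length, Sparc was the highest in every group, at 1098.6 ± 66.7 TPM in SCI + Atorvastatin, 1063.9 ± 61.5 in SCI + Vehicle (SD, n = 7 each) and 1059.7 and 837.3 in the controls. In SCI + Atorvastatin it was followed by Dcn (249.9 ± 81.2 TPM) and Fn1 (238.3 ± 50.4), whose ranges overlapped, and then by Serpinh1 (88.6 ± 19.5). Rgs5, Lum, Postn, Pdgfrb, Pdgfb and Cd248 came next in that order, and each overlapped the one after it. In SCI + Vehicle the order was Sparc, Fn1, Dcn, Serpinh1, Rgs5, Postn, Lum, Pdgfrb, Pdgfb and Cd248, and all neighbors overlapped except Sparc with Fn1 and Rgs5 with Postn. Cd248 was the lowest of the 10 in both SCI groups, at 12.0 ± 2.55 and 6.45 ± 2.72 TPM, whereas in the controls (27.3 and 23.7 TPM) its mean stood above those of Rgs5, Pdgfb, Pdgfrb, Lum and Postn. There its range overlapped those of Rgs5, Dcn and Pdgfb, and Postn (0 and 6.03) was the lowest.

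**Figure D1:**
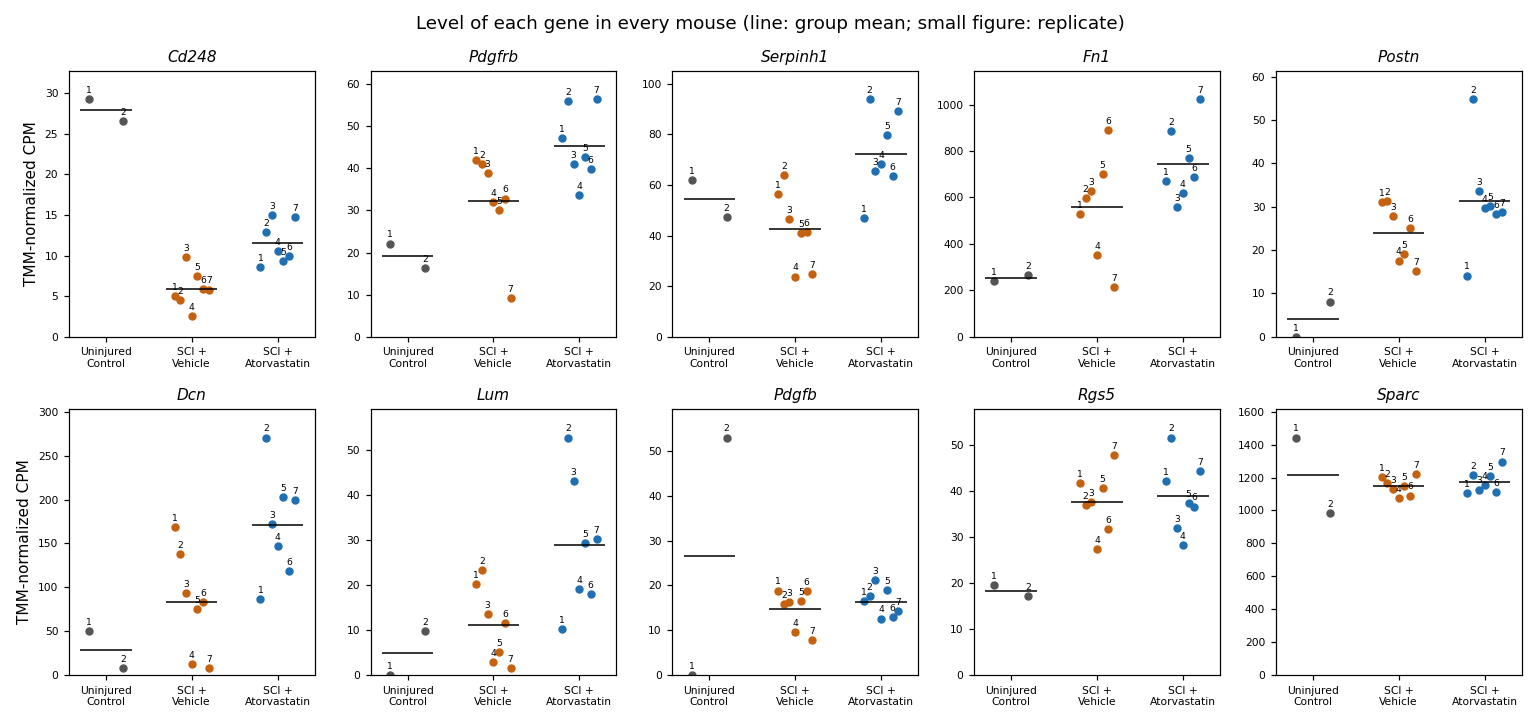
Level of each of the 10 genes in every mouse, as CPM (counts scaled to library size) after TMM normalization on the vertical axis, for the Uninjured Control, SCI + Vehicle and SCI + Atorvastatin groups; each point is 1 mouse labelled with its replicate number and each line is a group mean. Both control mice lie above all SCI mice for Cd248 and below all of them for Rgs5, and SCI + Vehicle mice 4 and 7 are the 2 lowest of their group for Dcn, Lum, Serpinh1, Postn, Fn1 and Pdgfb.

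The following levels are CPM scaled by TMM, and fold changes are on the log2 scale of edgeR's fit. Against the Uninjured Control group a gene was called at a change of more than 25% with a Benjamini-Hochberg adjusted p below 0.05 over all genes tested. Between the treatments it was called at the same change with an unadjusted p below 0.001.

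Cd248 was the gene of the 10 that fell after injury, and it was higher with atorvastatin than with vehicle. It encodes endosialin, a membrane protein of pericytes and fibroblasts, and lies on chromosome 19 from 5068078 to 5070682 (GRCm38, plus strand) as a single exon. Its level was 29.3 and 26.6 CPM in the control mice. In SCI + Vehicle mice 1 to 7 it was 5.05, 4.50, 9.86, 2.59, 7.53, 5.90 and 5.82 CPM, all below both controls. In SCI + Atorvastatin mice 1 to 7 it was 8.54, 12.9, 15.0, 10.6, 9.30, 9.93 and 14.8 CPM, also all below both controls. The 7 atorvastatin values all lay above the vehicle median, and the groups overlapped only through vehicle mouse 3.

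The decrease of Cd248 against the controls was 4.77-fold with vehicle (log2 fold change -2.25, standard error 0.423, edgeR adjusted p = 0.00295) and 2.40-fold with atorvastatin (-1.26, standard error 0.274, edgeR adjusted p = 0.00470). Each call held in all 9 fits that left out 1 mouse. Between the treatments Cd248 was higher with atorvastatin (log2 fold change 0.97, standard error 0.239), with an unadjusted edgeR p of 0.00058, an edgeR adjusted p of 0.680 and an exact two-sided permutation p of 0.00175 over 3432 assignments. The log2 difference stayed between 0.84 and 1.13 when each mouse was left out, but p rose above 0.001 in 6 of 14 fits, those without atorvastatin mouse 2, 3 or 7 or vehicle mouse 1, 2 or 6. Without vehicle mice 4 and 7 together it was 0.82 and was not called.

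Pdgfb, the ligand, was not called against the controls, and its level in them was not settled by the 2 mice. It lies on chromosome 15 from 79995874 to 80014977 (GRCm38, minus strand), where Gm41361 and Mir7213 overlap it, and the counting strand is not stated. It had 0 counts in control mouse 1 and 1167 in control mouse 2 (0 and 53.0 CPM), so the controls bracketed all SCI mice. Its levels were 7.76 to 18.9 CPM (median 16.3) in SCI + Vehicle and 12.6 to 21.1 CPM (median 16.6) in SCI + Atorvastatin. The sign of its fold change against the controls turned with the control mouse left out, and no direction is given. Between the treatments its log2 difference was 0.14, with a 95% interval of -0.26 to 0.53 (exact permutation p = 0.435).

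Pdgfrb, the receptor, was higher than in the controls in every atorvastatin mouse and in all vehicle mice but 1. It lies on chromosome 18 from 61045150 to 61085061 (GRCm38, plus strand). Its level was 22.1 and 16.3 CPM in the controls. It was 41.9, 40.9, 38.8, 32.1, 30.0, 32.8 and 9.26 CPM in SCI + Vehicle mice 1 to 7. It was 47.1, 56.0, 41.1, 33.6, 42.6, 39.8 and 56.4 CPM in SCI + Atorvastatin mice 1 to 7. Vehicle mouse 7 lay below both controls, and the other 13 SCI mice lay above them.

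For Pdgfrb the increase was 2.37-fold with atorvastatin (log2 fold change 1.24, standard error 0.239, edgeR adjusted p = 0.00238) and was not called with vehicle (0.73, standard error 0.459, edgeR adjusted p = 0.259). Without vehicle mouse 7 the vehicle value was 0.89 and was called (edgeR adjusted p = 0.0177). Between the treatments Pdgfrb was 1.40-fold higher with atorvastatin (log2 fold change 0.49, standard error 0.216, unadjusted edgeR p = 0.0347, adjusted p = 0.693, exact permutation p = 0.0181), and 0.32 without vehicle mouse 7.

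Rgs5 rose after injury and did not differ detectably between the treatments. It encodes a regulator of G protein signaling that is a marker of pericytes, and lies on chromosome 1 from 169655501 to 169695813 (GRCm38, plus strand). Its level was 19.5 and 17.1 CPM in the controls, below all SCI mice. It ranged from 27.5 to 47.8 CPM (median 37.6) in SCI + Vehicle and from 28.3 to 51.7 CPM (median 37.4) in SCI + Atorvastatin. Vehicle mouse 7, which had the lowest Pdgfrb, had the highest Rgs5 of its group.

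Rgs5 was 2.04-fold higher with vehicle (log2 fold change 1.03, edgeR adjusted p = 0.00917) and 2.14-fold higher with atorvastatin (log2 fold change 1.10, edgeR adjusted p = 0.00505), and both calls held in all 9 fits without 1 mouse. Its difference between the treatments was 0.045 with a 95% interval of -0.23 to 0.32, and its sign turned without atorvastatin mouse 2 or vehicle mouse 4 or 6.

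Serpinh1 was higher with atorvastatin than with vehicle, while neither SCI group was called against the controls. It encodes HSP47, the collagen chaperone of the endoplasmic reticulum, and lies on chromosome 7 from 99345376 to 99353239 (GRCm38, minus strand). Its level was 61.9 and 47.3 CPM in the controls. It was 56.4, 63.8, 46.6, 23.8, 41.0, 41.4 and 24.7 CPM in SCI + Vehicle mice 1 to 7. It was 46.9, 93.8, 65.3, 68.3, 79.8, 63.3 and 89.0 CPM in SCI + Atorvastatin mice 1 to 7. The controls lay within the range of the vehicle mice, and all 7 atorvastatin values lay above the vehicle median although the groups overlapped.

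The Serpinh1 difference between the treatments was 1.70-fold (log2 fold change 0.76, standard error 0.192), with an unadjusted edgeR p of 0.000678, an edgeR adjusted p of 0.680 and an exact two-sided permutation p of 0.00466. The call was kept in 5 of 14 fits without 1 mouse and lost without atorvastatin mouse 2, 4, 5 or 7 or vehicle mouse 3, 4, 5, 6 or 7, and over the 14 fits the log2 difference ranged from 0.66 to 0.89. Without vehicle mice 4 and 7 together it was 0.54 and was not called. Against the controls the log2 fold change was -0.37 with vehicle (edgeR adjusted p = 0.452) and 0.42 with atorvastatin (edgeR adjusted p = 0.203).

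Of the glycoproteins of the matrix, Fn1 rose with atorvastatin, Postn was higher in every SCI mouse than in the controls, and Sparc was not called in any comparison. Fn1 encodes fibronectin and lies on chromosome 1 from 71585520 to 71653200 (GRCm38, minus strand), where Apol7d overlaps it on the other strand. Its level was 239.2 and 266.3 CPM in the controls. It was 527.4, 596.4, 629.3, 351.2, 701.5, 891.7 and 213.9 CPM in SCI + Vehicle mice 1 to 7, and vehicle mouse 7 was again the one below both controls. It ranged from 559.9 to 1023.1 CPM (median 687.8) in SCI + Atorvastatin, above both controls.

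Fn1 was 2.97-fold higher with atorvastatin (log2 fold change 1.57, standard error 0.222, edgeR adjusted p = 0.000414). With vehicle the log2 fold change was 1.13 (standard error 0.431, edgeR adjusted p = 0.0717), which was called without vehicle mouse 7 (1.27, edgeR adjusted p = 0.0115). Between the treatments the Fn1 difference was 0.41 (unadjusted edgeR p = 0.0630, exact permutation p = 0.0921) and 0.27 without vehicle mouse 7.

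Postn encodes periostin, a matricellular protein that binds integrins and collagen, and lies on chromosome 3 from 54361109 to 54391037 (GRCm38, plus strand). It had 0 counts in control mouse 1 and 179 in control mouse 2 (0 and 8.12 CPM). It ranged from 15.2 to 31.4 CPM (median 25.1) in SCI + Vehicle and from 14.1 to 54.8 CPM (median 29.7) in SCI + Atorvastatin. All 14 SCI mice lay above both controls. The increase was not called in either SCI group (edgeR adjusted p = 0.122 with vehicle and 0.0714 with atorvastatin), and was called in both when either control mouse was left out. Against control mouse 2 alone, in which it was detected, the log2 fold change with vehicle was 1.54 (edgeR adjusted p = 0.00892). Between the treatments it was 0.39 (unadjusted edgeR p = 0.0880, exact permutation p = 0.238), and 0.20 without atorvastatin mouse 2, the highest.

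Sparc encodes osteonectin, a collagen-binding protein that astrocytes and endothelial cells also make, and lies on chromosome 11 from 55394500 to 55423183 (GRCm38, minus strand). Its level was 1443.1 and 983.2 CPM in the controls, which bracketed all SCI mice. It ranged from 1073.8 to 1223.7 CPM in SCI + Vehicle and from 1107.5 to 1296.8 CPM in SCI + Atorvastatin, the narrowest relative spread of the 10 genes in both groups (coefficients of variation 4.80% and 5.97%). Between the treatments the log2 difference was 0.033 with a 95% interval of -0.085 to 0.15. With vehicle the log2 fold change of Sparc was -0.34 against control mouse 1 alone, which was called (edgeR adjusted p = 0.0351), and 0.21 against control mouse 2 alone (edgeR adjusted p = 0.199).

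Dcn and Lum, the small leucine-rich proteoglycans decorin and lumican, which bind collagen fibrils, varied most among the SCI + Vehicle mice and were higher with atorvastatin by fold, without being called. They are neighbors on chromosome 10 of GRCm38, with Dcn from 97479609 to 97518143 and Lum from 97565128 to 97572703, both on the plus strand and 46984 bases apart. Dcn was 49.7 and 8.44 CPM in the controls. It was 168.9, 138.1, 93.1, 12.6, 75.5, 82.7 and 8.20 CPM in SCI + Vehicle mice 1 to 7. It was 86.3, 270.7, 172.2, 146.6, 202.8, 119.0 and 199.3 CPM in SCI + Atorvastatin mice 1 to 7. Vehicle mice 4 and 7 lay below the higher control, mouse 7 also below the lower one, and every atorvastatin mouse lay above both controls and above the vehicle median.

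Dcn was 5.92-fold higher with atorvastatin than in the controls (log2 fold change 2.57, standard error 0.647, edgeR adjusted p = 0.0103), a call that held in all 9 fits without 1 mouse. Its size rested on the controls, at a log2 fold change of 1.79 against control mouse 1 alone and 4.35 against control mouse 2 alone. With vehicle the increase was not called (standard error 1.06, edgeR adjusted p = 0.320). There the log2 value was 0.72 against control mouse 1, 3.28 against control mouse 2 and 1.93 without vehicle mice 4 and 7 (edgeR adjusted p = 0.603, 0.0581 and 0.0685). Between the treatments Dcn was 2.06-fold higher with atorvastatin (log2 fold change 1.04, standard error 0.437, unadjusted edgeR p = 0.0263, exact permutation p = 0.0187), and the log2 difference was 0.61 without vehicle mice 4 and 7.

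Lum had 0 counts in control mouse 1 and 216 in control mouse 2 (0 and 9.80 CPM). It was 20.3, 23.4, 13.5, 2.93, 5.02, 11.6 and 1.59 CPM in SCI + Vehicle mice 1 to 7. It was 10.2, 52.8, 43.1, 19.0, 29.4, 18.1 and 30.3 CPM in SCI + Atorvastatin mice 1 to 7. All atorvastatin mice lay above both controls, whereas vehicle mice 4, 5 and 7 lay between them. Lum had the widest spread of the 10 genes in both SCI groups, with coefficients of variation of 76.2% and 51.6%. Between the treatments it was 2.57-fold higher with atorvastatin (log2 fold change 1.36, standard error 0.449, unadjusted edgeR p = 0.00632, adjusted p = 0.680, exact permutation p = 0.0192), and the log2 difference was 0.97 without vehicle mice 4 and 7. Against the controls Lum was not called (edgeR adjusted p = 0.581 with vehicle and 0.132 with atorvastatin). With atorvastatin it was called when either control mouse was left out, at a log2 fold change of 1.58 against control mouse 2, and with vehicle it was called only against control mouse 1, which had no count.

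**Figure D2:**
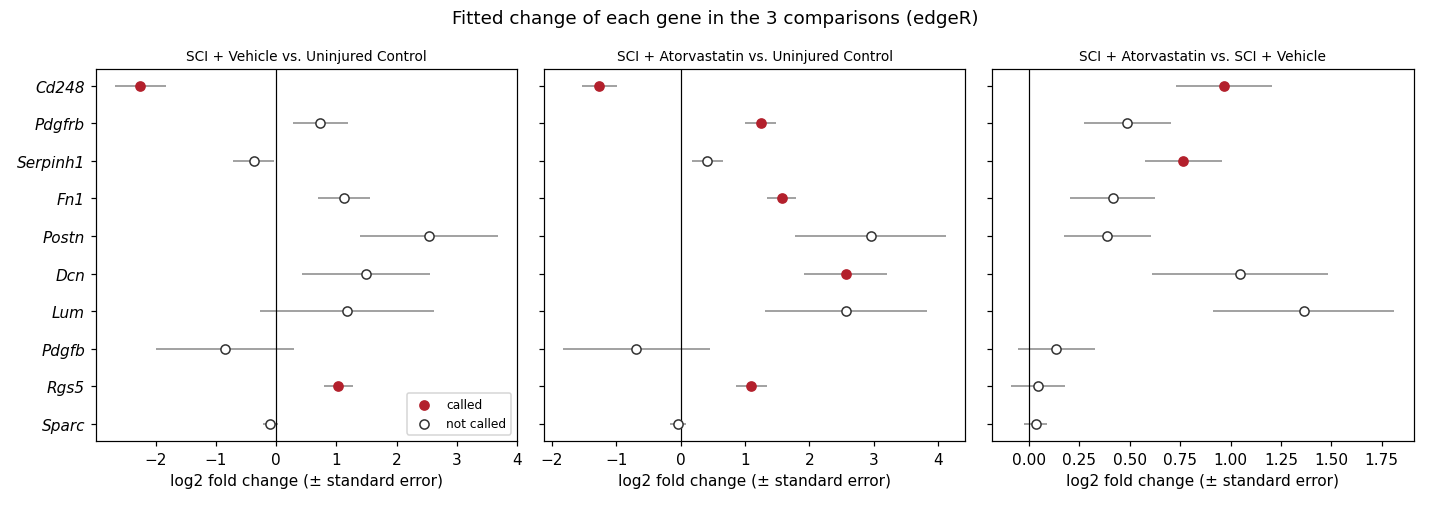
Fitted log2 fold change of each of the 10 genes with its standard error (bars) in the 3 comparisons; filled points were called and open points were not. Cd248 lies left of 0 against the controls and right of 0 between the treatments, and all 10 points lie right of 0 in SCI + Atorvastatin vs. SCI + Vehicle.

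With vehicle against the controls, 2 of the 10 genes were called, Rgs5 upregulated and Cd248 downregulated, where 29.4% of all genes tested were called. With atorvastatin against the controls, 5 were called, Dcn, Fn1, Pdgfrb and Rgs5 upregulated and Cd248 downregulated, where 38.9% of all genes were called. Both shares are near those of all genes. The values of the SCI mice and the controls did not overlap for 3 of the 10 genes with vehicle (35.6% of all genes) and for 7 with atorvastatin (44.0% of all genes). The median log2 fold change of the 10 was 0.88 with vehicle and 1.17 with atorvastatin, against 0.17 and 0.21 for all genes. The 2 comparisons share the control mice, and with voom weights that let each group have its own spread, none of the 10 was called in either. Leaving out 1 mouse at a time, the count with vehicle was 2 except without vehicle mouse 7 (4) or control mouse 1 or 2 (4 and 6), and that with atorvastatin was 5 except without control mouse 1 or 2 (8 each).

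In SCI + Atorvastatin vs. SCI + Vehicle, Cd248 and Serpinh1 were called, 2 of the 10 genes, where 0.106% of all genes were called (17 genes). At an unadjusted edgeR p below 0.05, 5 of the 10 were higher with atorvastatin, namely Lum, Dcn, Cd248, Serpinh1 and Pdgfrb, where 4.02% of all genes were higher at that limit. The study itself reported Cd248 among the genes that differed between the treatments. Since the 10 genes were chosen with earlier results of these data known, these shares are no test of them as a set. All 10 estimates were above 0, with a median of 0.45 against -0.001 for all genes, although the sign of Pdgfb turned without vehicle mice 4 and 7 and that of Rgs5 in 5 alternatives. None of the 10 had groups that did not overlap, as 0.087% of all genes did. With edgeR no gene of the 16091 had an adjusted p below 0.05 (1132 had an unadjusted p below 0.05), and the smallest adjusted p was 0.680. None of the 10 was called without vehicle mice 4 and 7 together, without atorvastatin mouse 2 or 7, or without vehicle mouse 6.

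Atorvastatin mouse 2, which carried the muscle RNA, had the highest Dcn, Lum, Postn, Serpinh1 and Rgs5 of its group, and also the highest sums of mural markers (779.6 TPM, against 459.6 to 556.3) and of adipose markers (478.7 TPM, against 80.5 to 121.7). The mural list includes Des, which muscle also expresses. In SCI + Atorvastatin the highest Des level lay far above the Des median of 5.545 CPM. The part of Des in the mural sum of mouse 2 was not tested, so that sum does not show more mural cells. Without atorvastatin mouse 2 the log2 difference between the treatments was 0.94 for Cd248, 0.69 for Serpinh1, 0.90 for Dcn and 1.15 for Lum. Between the treatments, estimates for other cell types' markers were higher with atorvastatin for 9 of 10 Schwann cell markers (median 0.37), 10 of 10 microglia and macrophage markers (0.13) and 9 of 10 skeletal muscle markers (1.97). They were also higher for 7 of 9 adipose (0.70), 7 of 10 liver (0.096) and 6 of 10 astrocyte markers (0.013). They were lower for 10 of 10 neuronal (-0.16), 6 of 10 oligodendrocyte (-0.047) and 6 of 7 bone and cartilage markers (-0.29). Of the erythroid markers, 0 were higher and 5 were lower (-0.045). None of these was called, and their part in the result was not tested. Vehicle mouse 7 had the highest neuronal sum of the SCI mice (12388.2 TPM, against 7396.5 to 10640.8). The part of the tissue sampled in these differences was not tested.

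The partners of these genes were described by lists of known pathway members and markers, which exclude the 10 genes. For comparison, 19.8% of all genes tested were called higher and 9.55% lower with vehicle against the controls, and 24.9% and 14% with atorvastatin, and the counts of each list below are to be read against these shares. Of 27 tested fibroblast and meningeal markers, 11 were upregulated and 1 downregulated with atorvastatin against the controls. With vehicle 1 was upregulated and 1 downregulated, and these 2 vehicle counts were below the shares of all genes. Igf2, a growth factor of the meninges, rose 2.23 on the log2 scale (edgeR adjusted p = 0.000462, standard error 0.322), and Mgp, a matrix protein that inhibits calcification, rose 3.42 (edgeR adjusted p = 0.000792, standard error 0.543), both with atorvastatin. Their estimates with vehicle were also above 0, at 1.49 and 2.48, and were not called (edgeR adjusted p = 0.218 and 0.0685). Thy1, a surface protein of fibroblasts and also of neurons, fell by 0.88 with atorvastatin (standard error 0.0778, edgeR adjusted p = 3.5e-05) and by 0.71 with vehicle (standard error 0.170, edgeR adjusted p = 0.0102). Twist1 and Tbx18, transcription factors of mesenchyme and mural cells, had 0 counts in both controls and medians of 2.77 and 2.88 CPM with atorvastatin. Their medians with vehicle were 2.16 and 1.34 CPM. Without vehicle mice 4 and 7 the count upregulated with vehicle was 7 instead of 1, without mouse 4 or 7 singly 2 and 5, and without control mouse 1 or 2 it was 4 each. Without control mouse 1 the count with atorvastatin was 19. Between the treatments none was called (9 at an unadjusted edgeR p below 0.05, 8 of them higher), 25 of 27 were higher with atorvastatin, and the median was 0.60.

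Of 18 mural and pericyte markers, 6 were upregulated with vehicle, and 7 were upregulated and 1 downregulated with atorvastatin. In each comparison 4 of the upregulated ones had 0 counts in both controls. Cspg4, the NG2 proteoglycan of pericytes and oligodendrocyte precursors, had 271 and 25 counts in the controls and was upregulated with vehicle (log2 fold change 2.96, standard error 0.752, edgeR adjusted p = 0.0138). Tbx2, Cox4i2 and Higd1b were among those at 0 in both controls and had medians of 1.49 to 3.21 CPM in the SCI groups. Heyl, a target of Notch signaling in mural cells, was downregulated with atorvastatin (-1.13, standard error 0.361, edgeR adjusted p = 0.0312), a call lost without atorvastatin mouse 2, 3, 5, 6 or 7. The Heyl estimate with vehicle was -1.28 and was not called (edgeR adjusted p = 0.0509). Between the treatments none was called, with a median of 0.20.

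Of 13 further members of the PDGF pathway, 2 were upregulated and 1 downregulated with vehicle, and 4 and 1 with atorvastatin, near the shares of all genes. Pdgfa, the A-chain ligand, fell in both, by 0.99 (standard error 0.291, edgeR adjusted p = 0.0269) and by 1.08 (standard error 0.228, edgeR adjusted p = 0.00416). Its receptor gene Pdgfra, which is expressed by fibroblasts and oligodendrocyte precursors, rose 0.97 with atorvastatin (standard error 0.158, edgeR adjusted p = 0.000918). The Pdgfra estimate with vehicle was 0.60 and was not called (edgeR adjusted p = 0.125). The adaptor Shc1 and the co-receptor Nrp1 were upregulated in both SCI groups. Shc1 had a log2 fold change of 2.20 with vehicle (standard error 0.377, edgeR adjusted p = 0.00177) and 2.49 with atorvastatin (standard error 0.367, edgeR adjusted p = 0.000523). The list had a median of 0.069 between the treatments, with none called.

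Of 27 enzymes and chaperones of collagen maturation, the partners of Serpinh1, 7 were upregulated with vehicle, 10 with atorvastatin, and none was downregulated in either. P4hb, a subunit of prolyl 4-hydroxylase, rose 0.67 with vehicle (standard error 0.142, edgeR adjusted p = 0.00551) and 0.84 with atorvastatin (standard error 0.124, edgeR adjusted p = 0.000541). P4ha3, another subunit of that enzyme, rose 1.71 and 1.83 (edgeR adjusted p = 0.00121 and 0.000406). Fkbp14, a chaperone of collagen, had 0 counts in both controls and medians of 9.47 CPM with vehicle and 13.1 CPM with atorvastatin. Between the treatments 26 of 27 were higher with atorvastatin, with none called and a median of 0.22.

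Of 11 other leucine-rich proteoglycans, 6 were upregulated with vehicle and 9 with atorvastatin, and none was downregulated. Of the upregulated ones, 3 with vehicle and 4 with atorvastatin had 0 counts in both controls. Ecm2, a matrix protein with leucine-rich repeats, rose 2.18 with vehicle and 2.55 with atorvastatin (edgeR adjusted p = 0.0103 and 0.000949). Omd and Chad, osteomodulin and chondroadherin, had 0 counts in both controls and medians of 1.89 and 2.65 CPM with vehicle and 4.97 and 4.23 CPM with atorvastatin. All 11 had estimates above 0 against the controls, while between the treatments none was called and the median was 0.52.

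Of 19 further matricellular genes, 6 were upregulated and 3 downregulated with vehicle, and 7 and 3 with atorvastatin. Spp1, osteopontin, rose 1.99 and 2.18 (edgeR adjusted p = 8.6e-05 and 2.6e-05), and Thbs2, thrombospondin 2, rose 1.75 and 1.99 (edgeR adjusted p = 0.000273 and 1.8e-05). The downregulated ones were Spock1, Spock2 and Spock3, testican proteoglycans of the Sparc family that neurons make. Spock2 fell by 0.86 with vehicle and by 1.01 with atorvastatin (edgeR adjusted p = 0.00403 and 8.3e-05). Beside them, 7 of 10 neuronal markers were downregulated with vehicle and 9 with atorvastatin. Wisp2, a CCN family protein, had 0 counts in both controls and medians of 32.8 CPM with vehicle and 34.3 CPM with atorvastatin. The sum of 10 microglia and macrophage markers, cells that also express Spp1, was 203.4 and 369.9 TPM in the controls and 2247.7 to 4006.6 TPM after SCI, and its part in these increases was not tested.

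Of 11 integrins and syndecans that bind fibronectin or periostin, 4 were upregulated in each SCI group and none was downregulated. The integrin chain Itgb5 rose 1.93 with vehicle (standard error 0.131, edgeR adjusted p = 1.9e-05) and 2.13 with atorvastatin (standard error 0.173, edgeR adjusted p = 2.5e-05). Of 5 relatives and reported ligands of Cd248, 2 were upregulated with vehicle and 3 with atorvastatin. None was downregulated, although 1 estimate was below 0 in each comparison. Cd93, an endothelial relative of Cd248, rose 1.08 with atorvastatin (standard error 0.325, edgeR adjusted p = 0.0232). Of 6 relatives of Rgs5, 3 were upregulated in each SCI group, and Rgs2 rose 1.16 and 1.13 (edgeR adjusted p = 0.00332 and 0.00566). Of 17 endothelial markers, 1 was upregulated with vehicle and 3 with atorvastatin, below the shares of all genes, and Pecam1 rose 1.29 with atorvastatin (standard error 0.329, edgeR adjusted p = 0.0107). None of these was called between the treatments.

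Counts of these lists moved when a control mouse was left out. Without control mouse 1 the counts upregulated with vehicle and with atorvastatin were 12 and 16 for collagen maturation, 9 and 10 for endothelium, 6 and 12 for mural markers, 6 and 8 for integrins and syndecans, 5 and 6 for the PDGF pathway and 5 and 5 for the relatives of Rgs5. Without control mouse 2 they were 10 and 11 for matricellular genes, 11 and 13 for collagen maturation, 3 and 6 for endothelium and 3 and 7 for the PDGF pathway. With voom weights none was upregulated in any list except among the integrins and syndecans with vehicle.

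**Figure D3:**
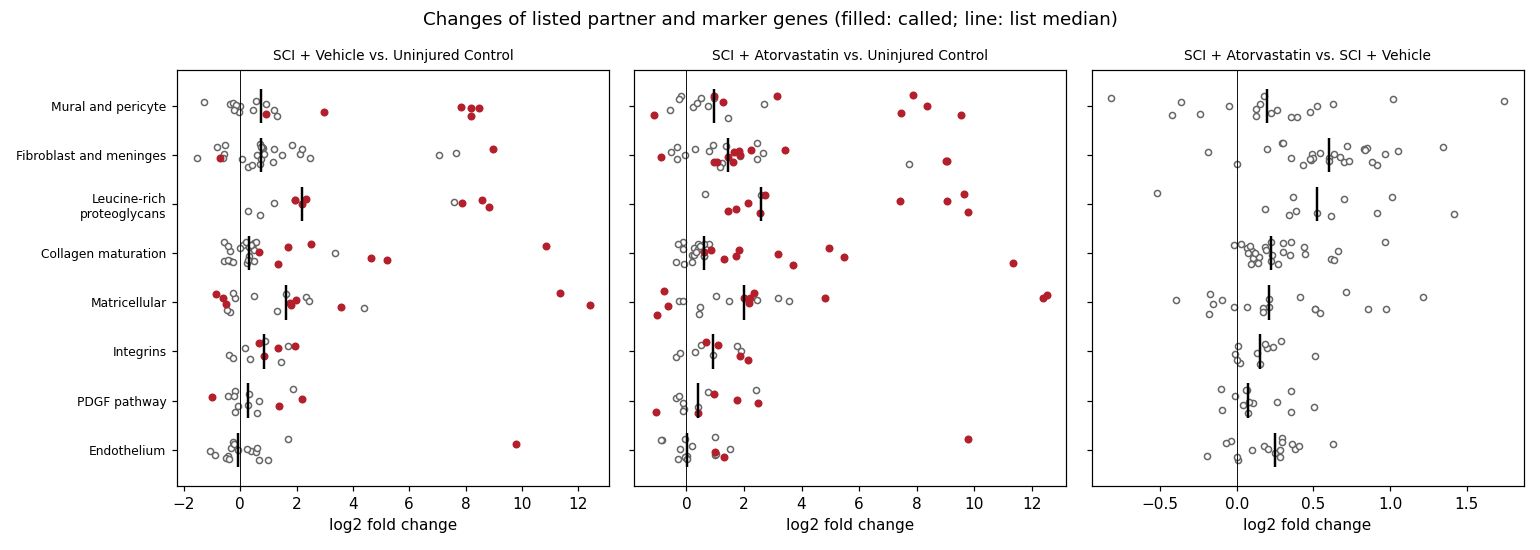
Log2 fold change of each tested gene (points) of 8 lists in the 3 comparisons, with called genes filled and the list median as a line; the 10 scar genes themselves are not in the lists. Points beyond 6 on the log2 scale had 0 counts in both controls and are not measured folds, and between the treatments the fibroblast and meningeal median lies at 0.60 with no called gene.

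Levels of Serpinh1, Dcn, Lum and Postn correlated across the mice of each SCI group in 3 of their 6 pairs with atorvastatin and in all 6 with vehicle. Of 90 pairs (45 in each group), 15 had a positive Pearson correlation of log2(CPM + 1) with a Benjamini-Hochberg adjusted exact permutation p below 0.05, 11 in SCI + Vehicle and 4 in SCI + Atorvastatin, and none was negative at that limit. Dcn and Lum correlated in SCI + Vehicle (r = 0.935, rho = 0.964, adjusted exact permutation p = 0.0134 and 0.0357, n = 7) and in SCI + Atorvastatin (r = 0.926, rho = 0.857, adjusted exact permutation p = 0.0223 and 0.126, n = 7). Dcn also correlated with Serpinh1 in both groups (r = 0.964 and 0.950, rho = 0.929 in each, adjusted exact permutation p for r = 0.0223 and 0.0179 and for rho = 0.0506 in each, n = 7). Postn and Lum had r = 0.995 in SCI + Vehicle and 0.897 in SCI + Atorvastatin (rho = 1.000 and 0.893, adjusted exact permutation p for r = 0.0134 and 0.0153 and for rho = 0.0357 and 0.0791, n = 7).

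Without the 2 mice farthest from the median of the first gene, r for Dcn and Lum was 0.852 and 0.714, for Serpinh1 and Dcn 0.901 and 0.811, and for Postn and Lum 0.991 and 0.770 in SCI + Vehicle and SCI + Atorvastatin. These 3 relations thus did not rest on those mice alone. The other pairs among Serpinh1, Dcn, Lum and Postn did not pass the limit in SCI + Atorvastatin. Without mice 1 and 2, r there fell from 0.828 to -0.319 for Serpinh1 and Postn and from 0.805 to 0.274 for Serpinh1 and Lum. For Postn and Dcn it fell from 0.886 to 0.277. In SCI + Vehicle without mice 4 and 7, r for the same pairs was 0.830, 0.866 and 0.842. Fn1 and Pdgfb in SCI + Vehicle had r = 0.928 (rho = 0.643, adjusted exact permutation p = 0.0476 and 0.446, n = 7), which fell to 0.215 without mice 4 and 7 and rests on them. The number of pairs past the limit was 3 without vehicle mouse 3, 8 without vehicle mouse 6, 9 without vehicle mouse 7 and 9 each without atorvastatin mouse 1 or 2.

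Cd248 was in none of the 15 pairs in either group. Its r with the other 9 genes lay between -0.03 and 0.53 in SCI + Vehicle and between 0.12 and 0.76 in SCI + Atorvastatin. The highest there was with Lum (rho = 0.786, adjusted exact permutation p = 0.15 for r and 0.21 for rho, n = 7). Rgs5 correlated with a different gene in each group. Pdgfrb and Rgs5 had r = 0.938 in SCI + Atorvastatin (rho = 0.929, adjusted exact permutation p = 0.0261 and 0.0506, n = 7) and r = -0.496 in SCI + Vehicle (rho = -0.143, adjusted exact permutation p = 0.537 and 1.0, n = 7), and 0.249 in SCI + Vehicle without mice 1 and 7. Rgs5 and Sparc had r = 0.937 in SCI + Vehicle (rho = 0.893, adjusted exact permutation p = 0.0196 and 0.0791, n = 7) and 0.476 in SCI + Atorvastatin. The differences between the groups in these correlations were not tested.

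**Figure D4:**
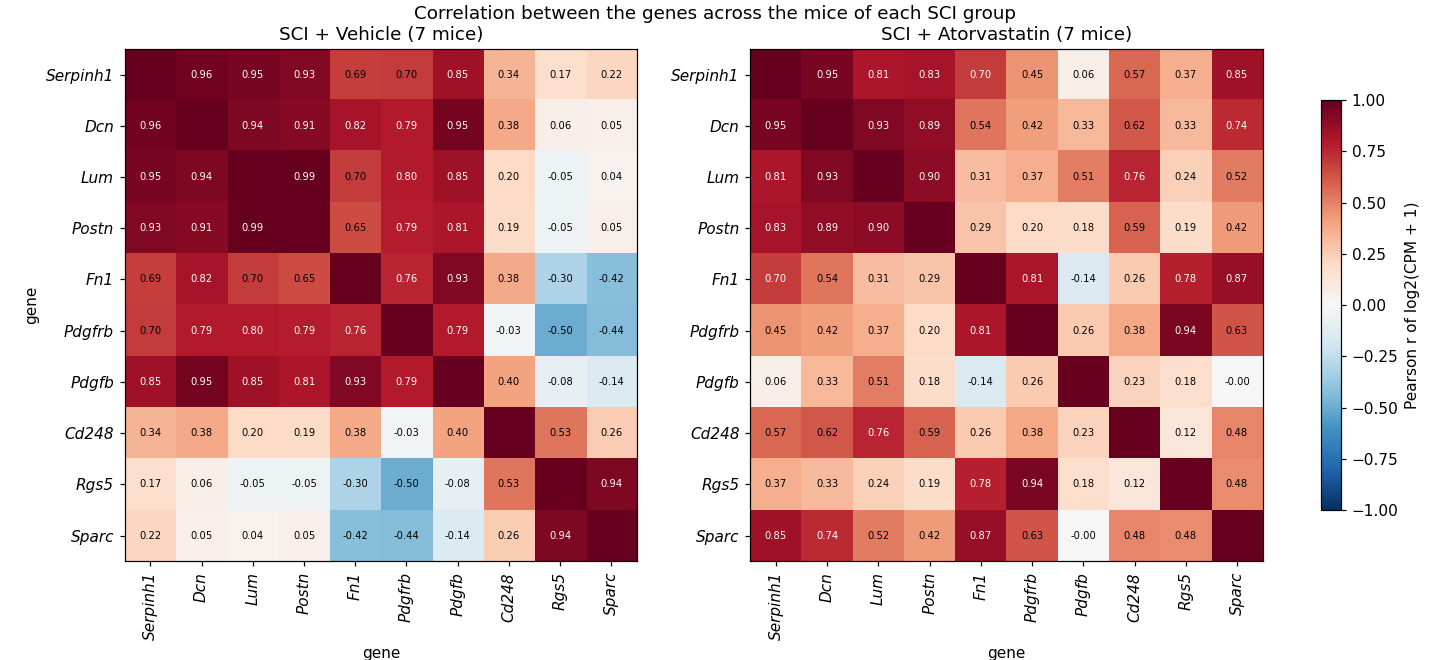
Pearson r of log2(CPM + 1) between each pair of the 10 genes across the 7 mice of SCI + Vehicle (left) and of SCI + Atorvastatin (right), on a color scale from -1 to 1. Over the 7 mice, Serpinh1, Dcn, Lum and Postn have high r with each other in both groups. In SCI + Atorvastatin without mice 1 and 2, r fell to -0.319 for Serpinh1 and Postn, 0.274 for Serpinh1 and Lum and 0.277 for Postn and Dcn. Rgs5 pairs with Sparc at 0.94 in SCI + Vehicle and with Pdgfrb at 0.94 in SCI + Atorvastatin.

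**Figure D5:**
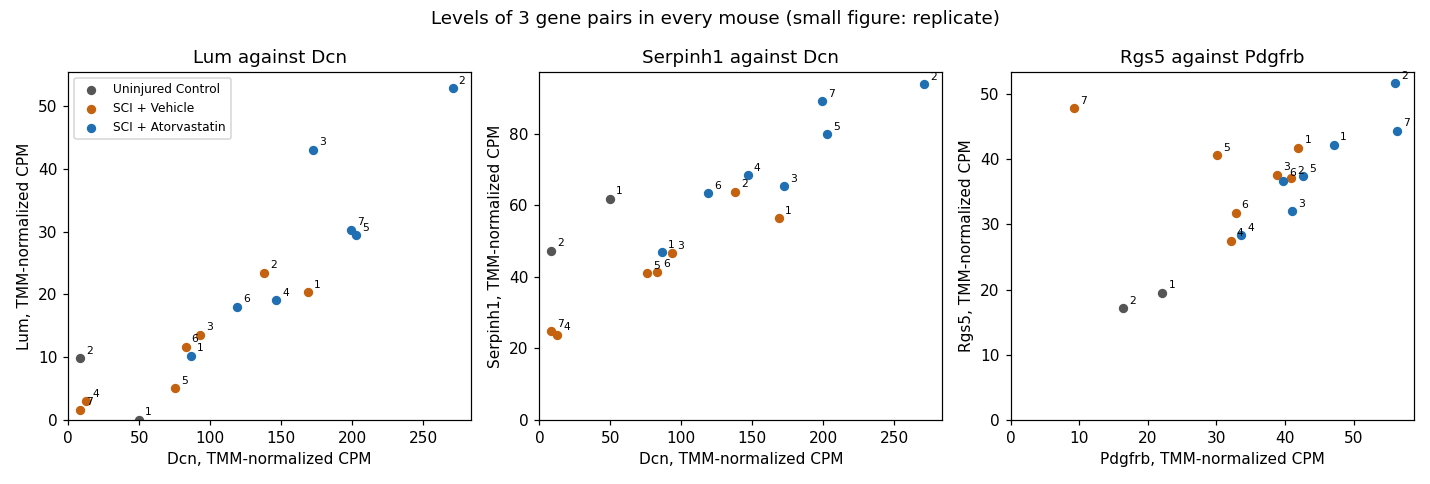
CPM of Lum against Dcn, Serpinh1 against Dcn and Rgs5 against Pdgfrb, with 1 point per mouse labelled by its replicate number and colored by group. SCI + Vehicle mice 4 and 7 lie at the low end of the first 2 pairs, and SCI + Vehicle mouse 7 combines a Pdgfrb of 9.26 CPM with an Rgs5 of 47.8 CPM.

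Across all 14 SCI mice, after the mean of each group was subtracted, the genes most like each of the 10 were sought among 14000 genes with at least 50 counts on average, as a description with no test. The 14 points share their libraries and depth across all genes. Dcn was most like Nid1 (nidogen, a basement membrane protein, r = 0.986), Mgp (0.979) and Ogn (osteoglycin, 0.978). Serpinh1 was most like Itgbl1 (0.959), Ddr2 (a collagen receptor, 0.955) and Serping1 (0.949), with Dcn and Lum among its nearest 50. Fn1 was most like Tnxb (tenascin X, 0.968), Crabp2 (0.951) and Ptrf (0.947), and Postn like Pid1 (0.923), Fbln2 (fibulin 2, 0.918) and F830016B08Rik (0.887). Lum was most like Clec2d (0.965), C1s1 (0.962) and Colec12 (0.954).

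Pdgfrb was most like Anpep (aminopeptidase N, which pericytes carry, r = 0.937), Xdh (0.936) and Msrb3 (0.934), and Pdgfb like Rin2 (0.959), Plau (0.958) and Snx5 (0.951). Cd248 was most like Fam104a (0.889), Crip2 (0.859) and BC068281 (0.850), and none of the other 9 genes was among its nearest 50. Likewise none was among the nearest 50 of Pdgfrb, Fn1, Rgs5 or Sparc. Rgs5 was most like Nde1 (0.903), Bag5 (0.842) and H2afj (0.838), and Sparc like Hnmt (0.868), C130050O18Rik (0.860) and 2900008C10Rik (0.860).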

How the data were processed

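Total RNA of 16 spinal cord segments was sequenced from SMARTer stranded libraries. The authors trimmed reads with Trimmomatic 0.38 after FastQC 0.12.1, aligned them to mm10 with STAR 2.5.4b and quantified genes with RSEM 1.3.1 (submitters' processing notes). They deposited whole-number counts, not normalized, and TPM, normalized for length and depth. The step that made the counts whole and the counting strand are not given in the sources used here.

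edgeR 4.0.16 under R 4.3.3 fitted the counts of all 16091 genes that passed the TPM filter, with TMM scaling and quasi-likelihood tests, using in each fit the 2 groups compared. Groups came from the sample labels, and p-values measure the spread between mice. Alternatives used DESeq2 1.42.0, limma 3.58.1, other filters, the replicate number as a block and each mouse left out. Leaving out vehicle mice 4 and 7 together was added after the data were seen. Where a fit leaves 1 control, that mouse is assumed to vary like the SCI group. Positions are from GENCODE on GRCm38. Methods were tested on simulated data. Figures used matplotlib 3.10.9 in Python 3.11.15.

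The 10 genes and all lists were chosen with earlier results of these data known. Of each list, the text names at most 3 called genes per direction and comparison with the controls, taken by p, and for likeness the 3 highest r per gene. A count of 0 allows 3 counts, 0.148 and 0.134 CPM in the controls, for counting error only.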

Additional observations from a re-analysis of the deposited data

Results flagged for a closer look

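Among 62 groups of 7 values (the 10 genes and 21 list sums in each SCI group), 11 held a mouse farther from the others than Dixon's 95% limit. Chance flags about 1 in 20 such groups. Of the 10 scar genes, this was Pdgfrb in SCI + Vehicle mouse 7, at 9.26 CPM against 30.0 to 41.9 in the other 6. In SCI + Atorvastatin mouse 2, the summed TPM was 779.6 for mural markers (others 459.6 to 556.3), 4354.8 for skeletal muscle (105.8 to 339.6), 86.9 for bone and cartilage (33.3 to 52.8) and 478.7 for adipose markers (80.5 to 121.7). The mural sum includes Des, which muscle also expresses, and the part of Des in it was not tested. In the same group the relatives of Rgs5 summed to 166.1 TPM in mouse 1 (others 126.3 to 142.5), endothelial markers to 563.6 in mouse 7 (439.5 to 491.3) and microglia and macrophage markers to 4006.6 in mouse 3 (2789.1 to 3230.2). In SCI + Vehicle, skeletal muscle markers summed to 1163.9 TPM in mouse 3 (others 100.7 to 193.6), and in mouse 2 bone and cartilage markers to 172.7 (36.1 to 49.7) and erythroid markers to 3800.7 (151.5 to 1521.0).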

How the results depend on the processing

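Of 620 refits of single genes of the 10, 528 kept the direction and side of the limit, 40 lost and 29 gained a call, and 23 changed sign. With 2 control mice, calls against them are the least stable. With vehicle against the controls (2 of the 10 called) the number was 4 with DESeq2, 4 with all 3 groups in 1 fit, 4 without vehicle mice 4 and 7, 0 with voom group weights, 0 with the replicate block and 2 to 6 when 1 mouse was left out. With atorvastatin against them (5 called) it was 8 with limma on log2(TPM + 1), 8 on log2(TPM + 0.1), 0 with voom, 0 with the block and 5 to 8 without 1 mouse. Between the treatments (2 called) it was 0 with all 3 groups in 1 fit, 0 with limma at either pseudocount, 1 with voom, 0 at an adjusted p below 0.05, 0 without vehicle mice 4 and 7, and 0 to 2 without 1 mouse. The cause of these shifts was not tested. The exact permutation test called 0 as well. With 3432 assignments its p can fall below 0.001 only where the groups do not overlap, which held for none of the 10, so it could call none. Replicate numbers did not pair the mice (7 pairs of deviations correlated at -0.192 to 0.111, and 0 mice correlated best with their own number), and the replicate block called 16, 0 and 8 of all genes in the 3 comparisons, against 4726, 6260 and 17 without it. Against the controls, only SCI mice 1 and 2 share a block with a control. Those block fits could therefore call hardly any gene, and they say little about how stable the calls are. Over all genes voom called 132, 145 and 8, DESeq2 6000, 7207 and 37, and the filter on every condition left 2398, 3710 and 13. The 15 correlated pairs became 9 on log2(TPM + 1) and 3 to 16 without 1 mouse. Against the controls, Pdgfb turned positive with vehicle (0.62 and 2.14 in limma, 3.43 in voom, 3.02 with the block, -1.85 to 11.3 without 1 mouse) and with atorvastatin (1.02, 2.59, 3.61, 3.01 and -1.69 to 11.5). Sparc turned positive with vehicle (0.17 in limma at both pseudocounts, -0.34 to 0.21 without 1 mouse) and with atorvastatin (0.22 in both, -0.30 to 0.27), and Serpinh1 was 0.13 with vehicle under the block. Between the treatments Pdgfb was -0.085 without vehicle mice 4 and 7. Rgs5 was -0.054 and -0.055 in limma, and -0.036 to 0.11 without 1 mouse, below 0 without atorvastatin mouse 2 or vehicle mouse 4 or 6.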
